A study of Homo sapiens with 9 samples.

Results

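Keratins are the intermediate filament proteins of epithelial cells, and each filament is built from pairs of a type I and a type II keratin. KRT8 (type II) and KRT18 (type I) are the basic pair of simple epithelia and of carcinomas derived from them, while KRT7 and KRT19 are further simple keratins used as markers of glandular and lung tumours. KRT81 and KRT86 are type II keratins of the hair cortex, and KRT80 is a type II keratin found in many epithelia. Keratin filaments tie into desmosomes and hemidesmosomes, the junctions that hold epithelial cells to each other and to the basement membrane. The 7 genes described here are the type II keratins KRT7, KRT8, KRT80, KRT81 and KRT86 and the type I keratins KRT18 and KRT19. They were chosen by name from the 29972 genes of a table of transcript levels, and all 7 are in it.

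The levels were measured by RNA sequencing of the cell line H2030, which was derived from a non-small cell carcinoma of the lung, so all values come from tumour cells in culture. Cells received 20 nmol/L of 1 of 3 siRNA preparations with a lipid reagent. The siMENA11a group received a mix of duplexes against exon 11a of ENAH, the siMENA group a purchased pool that targets every ENAH isoform, and the control group a non-targeting pool of another reagent line. ENAH encodes hMENA, an actin regulator, and hMENA11a is the epithelial isoform that holds exon 11a. The series asks which tumour cell programmes follow the loss of hMENA11a. Each group has 3 libraries. The labels do not say that these came from separate cultures, so p-values measure only the spread between libraries, which may be technical. The exon is shown because it is the target of the siMENA11a mix. It has 63 bases and occupies chr1:225504991-225505053 (GRCh38, minus strand). The capitals mark 2 overlapping words, CCAAGGA and CAAGGAA, that are searched for in keratin transcripts further on.
ENAH exon 11a: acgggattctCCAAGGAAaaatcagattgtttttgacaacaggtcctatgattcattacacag

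Values are TPM, a transcript's share of its library corrected for transcript length, divided by a size factor per library, called scaled TPM, so levels of different keratins can be set side by side. Size factors ran from 0.886 to 0.973 in siMENA11a, from 1.06 to 1.09 in siMENA and from 0.995 to 1.04 in control. In TPM as deposited the median gene shifted by -0.11 on the log2 scale for siMENA11a against control, by 0.09 for siMENA against control and by -0.20 for siMENA11a against siMENA; size factors remove these shifts, so changes are relative to the median gene. The summed ENAH level averaged 47.6 ± 1.01 scaled TPM in siMENA11a, 7.22 ± 0.306 in siMENA and 43.8 ± 0.770 in control (SD, n = 3 each), which checks the label of siMENA but not that of siMENA11a, because the sum does not measure exon 11a. Of 6 epithelial markers, EPCAM, KRT8 and KRT18 reached a mean of 1 scaled TPM, EPCAM rose by 0.80 under siMENA11a and 0.88 under siMENA on the log2 scale, and the adhesion gene CDH1 averaged 0.0434 in siMENA11a, 0.102 in siMENA and 0.0531 in control. No gene of the lung lineage list (NKX2-1, SFTPC, SFTPB, SCGB1A1, FOXJ1) or the squamous list (TP63, KRT5, KRT14, DSG3, SOX2) reached 1 scaled TPM, and SFTPC, SCGB1A1, KRT14 and DSG3 were listed at 0 in all 9 libraries. Of 6 fibroblast markers, 2 (COL1A1 and COL3A1) reached 1 scaled TPM. The list summed to 7.80 to 8.23 scaled TPM in siMENA11a, 15.4 to 17.2 in siMENA and 8.83 to 9.41 in control. Of 5 leukocyte markers CD14 alone reached 1 scaled TPM, CD3E was listed at 0 throughout, and the list summed to 1.60 to 2.24, 0.786 to 0.923 and 1.26 to 1.30 scaled TPM in siMENA11a, siMENA and control. The 4 endothelial markers summed to 0.550 to 0.587 in siMENA11a, 0.973 to 1.18 in siMENA and 0.513 to 0.672 in control. The part of these marker differences in the keratin results was not tested. In bulk RNA, fewer cells with a transcript and less of it per cell cannot be told apart.

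Among the 7 genes KRT18 was the most abundant in every group, followed by KRT8, KRT80, KRT7, KRT81, KRT86 and KRT19. That order was the same in all 3 groups, and the 3 libraries of each gene did not overlap those of its neighbour in the order. The sum over the 7 genes was 375 to 394.9 scaled TPM in siMENA11a, 350.5 to 367 in siMENA and 444 to 451 in control, and neither knockdown overlapped control. KRT18 made up 55.5% ± 0.268 of that sum in siMENA11a, 61.5% ± 1.00 in siMENA and 56.3% ± 1.20 in control (SD, n = 3 each). KRT80 contributed 16.4% ± 0.250 in siMENA11a, 10.5% ± 0.530 in siMENA and 18.2% ± 1.00 in control.

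**Figure D1:**
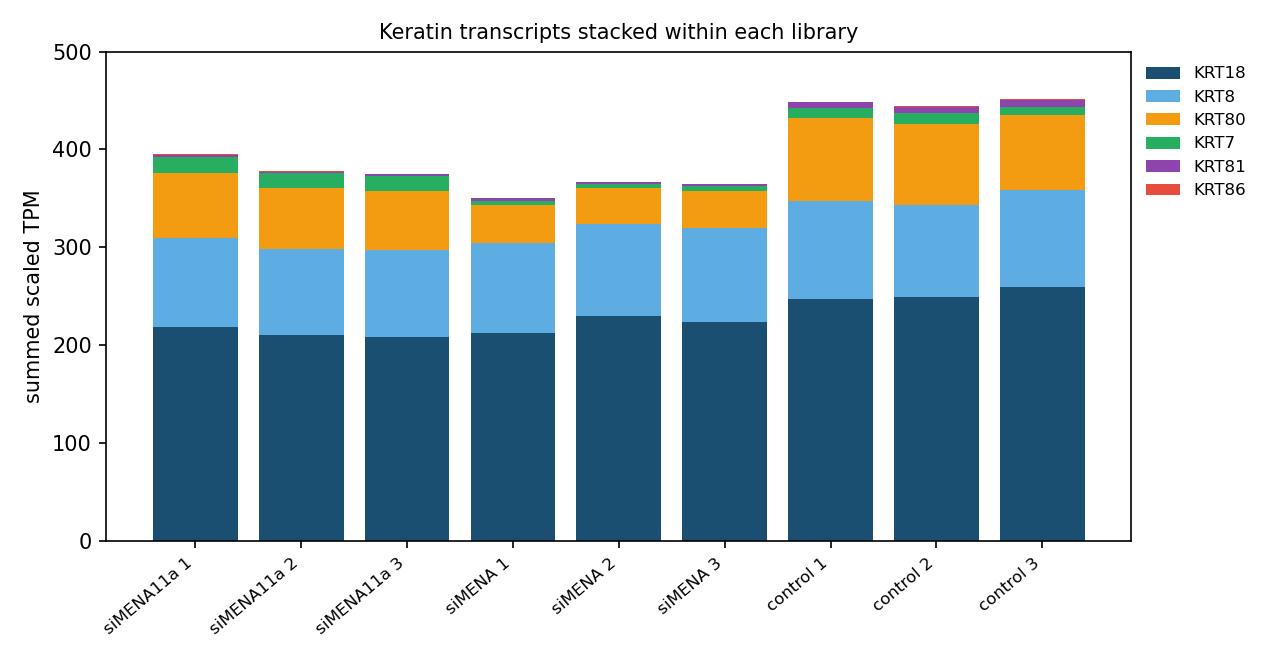
Summed scaled TPM of the keratins (vertical axis) in each of the 9 libraries (bars), stacked by gene; KRT19, listed at 0 or 0.05 TPM, is not drawn. The siMENA bars are the lowest at 350.5 to 367 and the control bars the highest at 444 to 451.

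Under siMENA11a, KRT7 rose and KRT81, KRT80, KRT18 and KRT8 fell against control. The change was largest for the hair keratin KRT81 and smallest for KRT8. Of the 7 keratins, 5 passed the filter of a mean of at least 0.5 scaled TPM and were tested. A gene was called at an adjusted p under 0.05 in limma, with the Benjamini-Hochberg adjustment made over the 13498 genes tested. Of the 5, 1 was called higher and 4 lower, where 55.6% of all genes tested were called (27.9% higher and 27.7% lower). The median log2 fold change of the 5 was -0.25, against 0.01 over all genes tested. The libraries did not overlap for 5 of 5, which was so for 62.9% of all genes. KRT81 alone changed by at least 2-fold, where 2.62% of all genes were called with such a change.

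Under siMENA, 4 of the 5 tested keratins fell and 0 rose, with KRT81, KRT7 and KRT80 each falling by more than 1 on the log2 scale. Of all genes, 49.4% were called (23.7% higher and 25.8% lower), and 1.81% were called with a change of at least 2-fold. The median of the 5 keratins was -1.09, against 0.01 over all genes tested, and the libraries did not overlap for 4 of 5 keratins and for 57.6% of all genes. Both comparisons use the same 3 control libraries. In the direct comparison of siMENA11a against siMENA, KRT7 and KRT80 were higher and KRT81 lower, and KRT8 and KRT18 were not called. There 58.7% of all genes were called (29.5% higher and 29.2% lower), and 4.33% with a change of at least 2-fold, as KRT7 was. The libraries of 4 of 5 keratins and of 65.1% of all genes did not overlap.

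**Figure D2:**
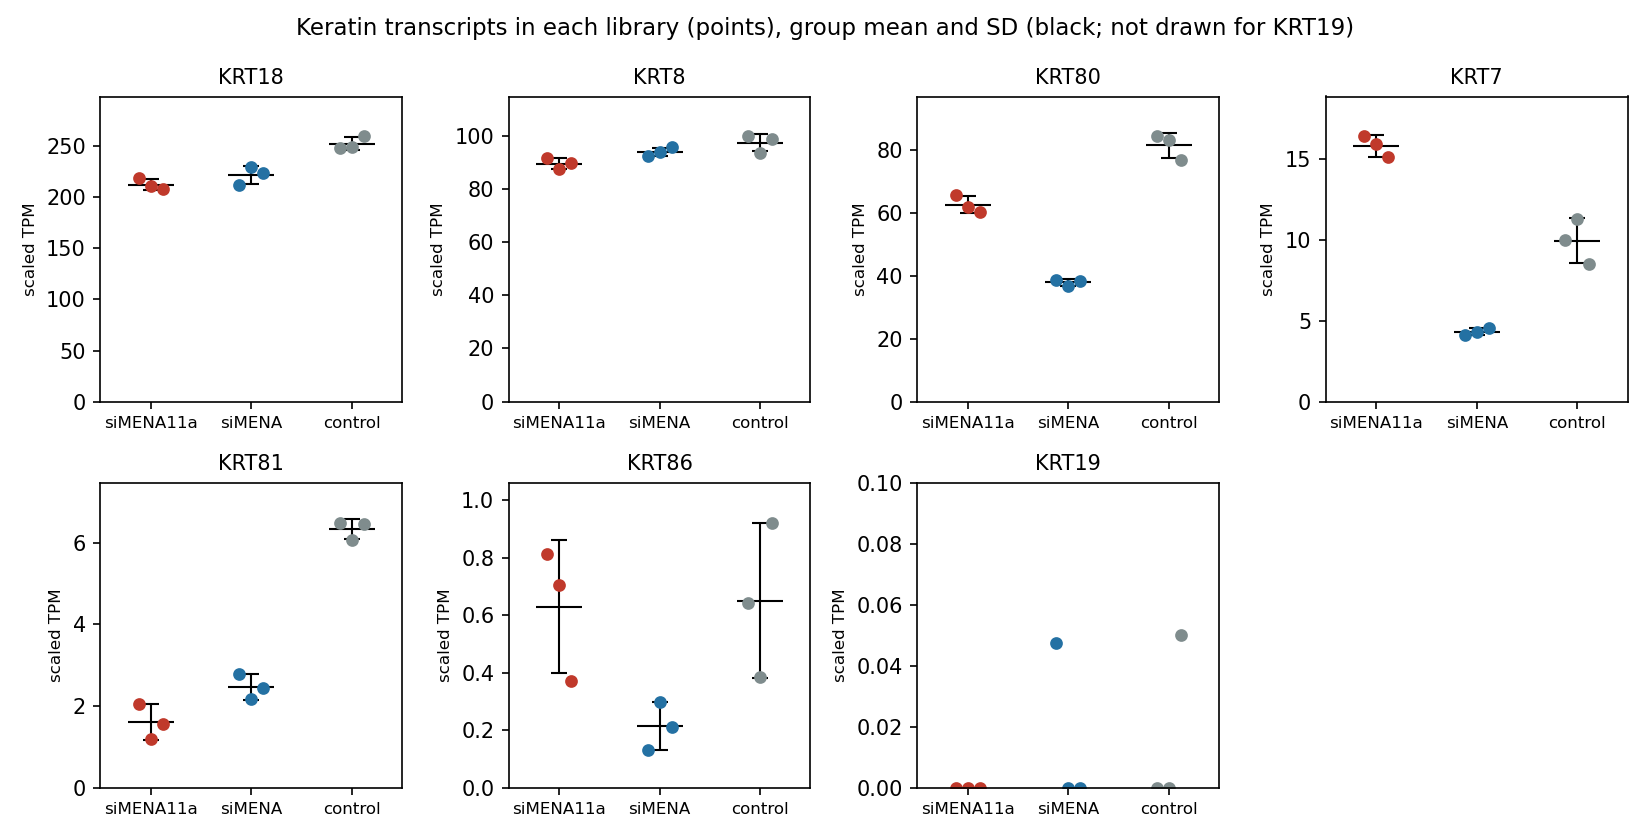
Scaled TPM (vertical axes, each from 0) of the 7 keratins in the 3 libraries of siMENA11a, siMENA and control (points), with group mean and SD in black except for KRT19. KRT7 lies above control in siMENA11a and below it in siMENA, while KRT81 and KRT80 lie below control in both.

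Among the tested members, KRT7, a type II keratin of glandular epithelia, alone moved in opposite directions against control. The hair keratin KRT34, which is below the filter, also did so and is given under the other observations. In scaled TPM, KRT7 had 16.4, 15.9 and 15.1 in siMENA11a libraries 1, 2 and 3. It had 4.12, 4.29 and 4.56 in siMENA libraries, and 9.96, 11.3 and 8.52 in control libraries. The 3 groups were fully separate, with siMENA11a highest and siMENA lowest. Against control KRT7 rose by 0.65 ± 0.088 (SE) on the log2 scale under siMENA11a (adjusted p = 0.000202) and fell by 1.10 ± 0.088 under siMENA (adjusted p = 9.39e-06). Its rise exceeded the change of 89.7% of tested genes in size, and its fall that of 98.3%. Between siMENA11a and siMENA the difference was 1.76 ± 0.088 on the log2 scale (adjusted p = 2.62e-07), and the ratio of the means was 3.65. The 3 control values spread more widely than those of either knockdown, with SDs of 0.661 in siMENA11a, 0.224 in siMENA and 1.39 in control.

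KRT80, the type II keratin with the highest level after KRT8, fell in both knockdowns and more under siMENA. Its libraries had 65.7, 62.0 and 60.5 scaled TPM in siMENA11a, 38.8, 36.7 and 38.4 in siMENA, and 84.5, 83.4 and 77.0 in control. No 2 groups overlapped. The log2 fold change against control was -0.38 ± 0.046 under siMENA11a (adjusted p = 9.79e-05) and -1.09 ± 0.046 under siMENA (adjusted p = 2.33e-07). KRT80 was higher in siMENA11a than in siMENA by 0.72 ± 0.046 (adjusted p = 1.07e-06). Its fall under siMENA exceeded the change of 98.2% of tested genes in size, and its fall under siMENA11a that of 71.4%.

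KRT18, the type I partner of KRT8, fell by a small step in both knockdowns. Its scaled TPM was 218, 211 and 208 in siMENA11a libraries, 212, 229.6 and 224 in siMENA libraries, and 248, 249 and 259 in control libraries. Both knockdowns lay below every control library and overlapped each other. The log2 fold change was -0.25 ± 0.037 under siMENA11a (adjusted p = 0.000394; -0.38 in TPM as deposited) and -0.18 ± 0.037 under siMENA (adjusted p = 0.00281). The fall under siMENA was no longer called in TPM as deposited (-0.10, adjusted p = 0.11) or in TPM rescaled without small RNAs (-0.08, adjusted p = 0.0513). Across alternatives the adjusted p of that fall ran from 0.00248 to 0.11. Between siMENA11a and siMENA the difference was -0.06 ± 0.037 (adjusted p = 0.175).

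KRT8 changed least of the tested keratins against control. It had 91.7, 87.3 and 89.6 scaled TPM in siMENA11a, 92.3, 93.9 and 95.6 in siMENA, and 99.8, 93.6 and 98.7 in control. The siMENA11a libraries lay below all control libraries, while siMENA and control overlapped. KRT8 fell by 0.12 ± 0.034 on the log2 scale under siMENA11a (adjusted p = 0.0136). That call ended with upper-quartile scaling (-0.08, adjusted p = 0.067), in TPM rescaled without small RNAs (-0.04, adjusted p = 0.266), without control 1 (-0.10, adjusted p = 0.0526) and without siMENA11a 2 (-0.10, adjusted p = 0.0609), while TPM as deposited gave -0.25, and its adjusted p over the alternatives ran from 0.000954 to 0.266. Under siMENA the log2 fold change was -0.05 ± 0.034 (adjusted p = 0.24), with a positive sign in TPM as deposited (0.03) and in TPM rescaled without small RNAs (0.05).

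**Figure D3:**
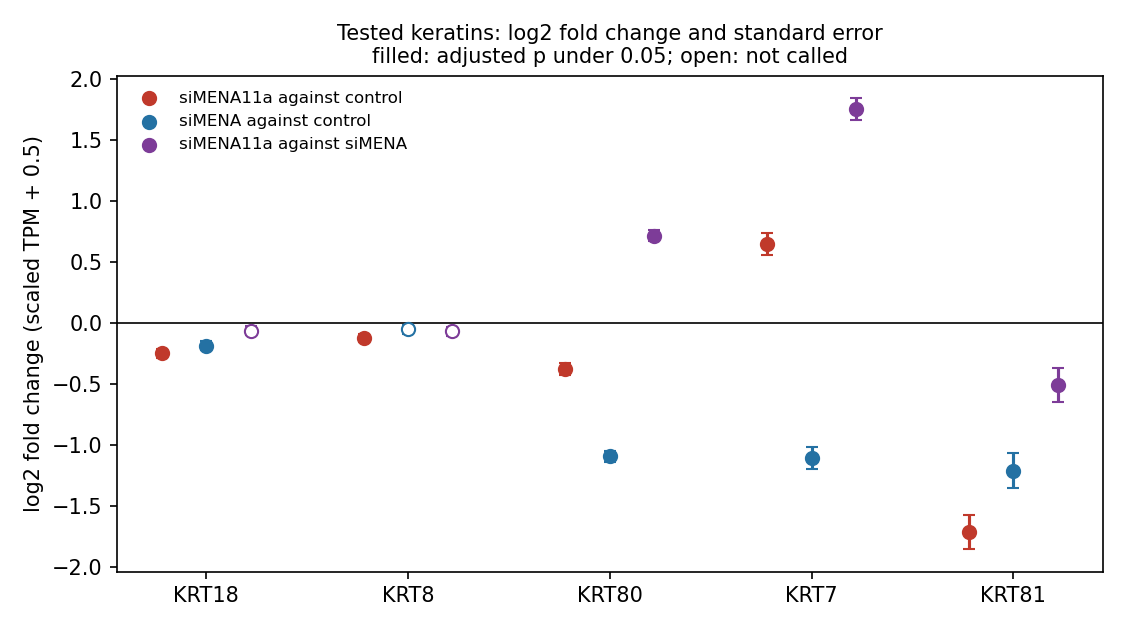
Log2 fold change of scaled TPM + 0.5 (vertical axis, points) with its standard error (bars) for the 5 tested keratins in the 3 comparisons; filled points have an adjusted p under 0.05. KRT18 and KRT8 lie close to 0, KRT7 is split between 0.65 and -1.10, and KRT81 lies at -1.72 and -1.21.

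KRT81, a hair keratin that some carcinomas express, showed the largest fall of the group. It had 2.07, 1.20 and 1.56 scaled TPM in siMENA11a, 2.79, 2.17 and 2.43 in siMENA, and 6.49, 6.06 and 6.46 in control. Both knockdowns were far below control, and siMENA11a lay below siMENA without overlap. The log2 fold change was -1.72 ± 0.14 under siMENA11a (adjusted p = 7.58e-06) and -1.21 ± 0.14 under siMENA (adjusted p = 9.42e-05), larger in size than that of 99.3% and 98.7% of tested genes. As ratios of means, KRT81 was at 0.254 of control in siMENA11a and at 0.389 of control in siMENA, since the log2 scale with its added 0.5 understates the change of low genes. Between siMENA11a and siMENA the difference was -0.51 ± 0.14 (adjusted p = 0.011).

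KRT86, the hair keratin next to KRT81 on chromosome 12, was near the lower limit of the table. Its scaled TPM was 0.812, 0.704 and 0.370 in siMENA11a, 0.133, 0.298 and 0.211 in siMENA, and 0.643, 0.384 and 0.921 in control. All siMENA libraries lay below all control libraries, and siMENA11a overlapped control. With a mean of 0.497 over all libraries it missed the filter by little. With no filter its log2 fold change was -0.02 ± 0.21 under siMENA11a (adjusted p = 0.979) and -0.67 ± 0.21 under siMENA (adjusted p = 0.0379).

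KRT81 and KRT86 share sequence, so their values are uncertain. In GENCODE 29 on GRCh38, KRT81 (chr12:52285913-52291534, minus strand) sits inside the annotated span of KRT86 (chr12:52249300-52309163, plus strand). Of the 1891 distinct 75-base windows of KRT81 transcripts, as long as a read, at least 32.4% occur without a mismatch in KRT86 transcripts. The coding sequences have 1515 and 1458 bases, and 93.6% of the 1454 aligned bases are identical. How the authors' counting divided such reads is not given in the sources used here.

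The other keratins share less. KRT8 shares 6.29% of its windows with 16 other genes, with the pseudogene KRT8P3 in first place. KRT18 shares 15.8%, chiefly with KRT8, which overlaps its start on the other strand. KRT7 shares 9% with the antisense gene KRT7-AS, and KRT80 and KRT19 share 0. Matches with a gene on the other strand, such as KRT7-AS, are included here, although the libraries were stranded. Whether the authors' counting used the strand is not stated. On GRCh38 KRT7 spans chr12:52232520-52252186 (plus strand), and the span of KRT86 overlaps its end. KRT80 spans chr12:52168996-52192000 (minus strand) and overlaps the non-coding gene LINC00592. KRT8 (chr12:52897187-52949954, minus strand) and KRT18 (chr12:52948871-52952901, plus strand) lie farther along the same chromosome, and KRT19 is elsewhere (chr17:41523617-41528308, minus strand). KRT80, KRT7 and KRT81 lie in this stretch in that order, with KRT7 higher and both KRT80 and KRT81 lower under siMENA11a in every scaling tried.

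KRT19, a simple type I keratin common in lung adenocarcinoma, was listed at 0 in 7 of 9 libraries. The others were siMENA 1 and control 3, each listed at 0.05 TPM. It was not tested, and the depth behind these values is unknown.

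The balance of the partners KRT8 and KRT18 was measured as a ratio within each library, which needs no scaling. It was 0.420, 0.414 and 0.431 in siMENA11a, 0.434, 0.409 and 0.427 in siMENA, and 0.403, 0.375 and 0.380 in control. Every knockdown library was above every control library. On the log2 scale the ratio was higher than control by 0.13 ± 0.035 (SE) under siMENA11a and by 0.13 ± 0.041 under siMENA (exact two-sided permutation p = 0.1 for each, the smallest that 3 libraries against 3 allow). Between siMENA11a and siMENA it differed by -0.0052 ± 0.031 (exact permutation p = 0.9).

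The summed type II keratins (KRT7, KRT8, KRT80, KRT81 and KRT86) were set against the summed type I keratins (KRT18 and KRT19) in the same way. The ratio averaged 0.802 ± 0.00866 in siMENA11a, 0.626 ± 0.0263 in siMENA and 0.777 ± 0.0377 in control (SD, n = 3 each). The siMENA libraries were below all others, and siMENA11a and control overlapped. On the log2 scale siMENA differed from control by -0.31 ± 0.054 and siMENA11a from siMENA by 0.36 ± 0.036 (exact permutation p = 0.1 for each, the smallest possible). The difference between siMENA11a and control was 0.046 ± 0.042 (exact permutation p = 0.4), and it was 0.0087 without control 3 and 0.079 without control 1.

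**Figure D4:**
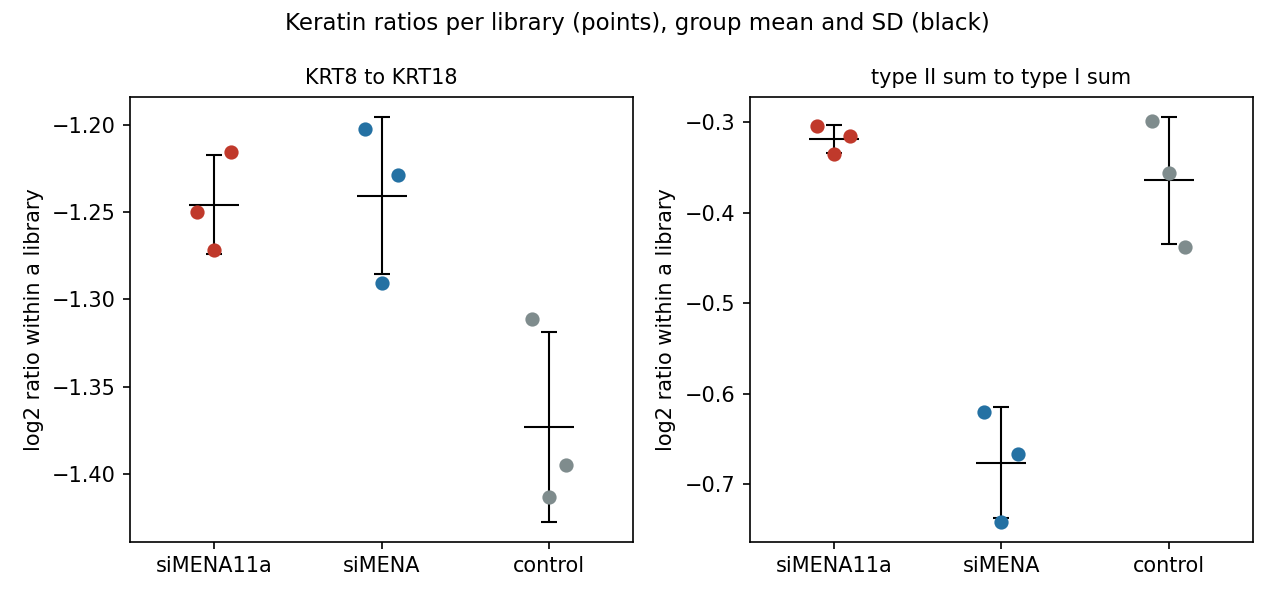
Log2 ratio within each library (points; black, mean and SD of 3 libraries) of KRT8 to KRT18 on the left and of the type II sum to the type I sum on the right. On the left every knockdown library lies above control; on the right the siMENA libraries lie apart, at -0.74 to -0.62.

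Profiles over the 9 libraries were compared with those of 9018 genes at a mean of at least 5 scaled TPM. The measure was the root mean square difference of log2 values centred on each gene's mean, as a description of likeness only. Nearest to KRT7 were TERF2IP (0.102), which encodes a telomere-bound protein, FRMD4A (0.141) and FAM3C (0.152). TERF2IP averaged 52.5 scaled TPM in siMENA11a, 15.1 in siMENA and 33.2 in control. Nearest to KRT80 were the secreted protease gene PRSS23 (0.0301), RAPH1 (0.051), whose product binds Ena/VASP proteins, and the adrenergic receptor gene ADRA1B (0.0629). PRSS23 averaged 36.0 scaled TPM in siMENA11a, 21.8 in siMENA and 46.6 in control. Nearest to KRT81 were ITFG3 (0.199), the vesicle fusion gene VAMP7 (0.2) and the histone gene HIST1H2BD (0.237). Histone genes have close copies, so the value of HIST1H2BD is uncertain. The nearest of the small-change keratins were SIN3A, EEF2 and CCAR1 for KRT8 (0.0258 to 0.0305) and PAF1, TMEM69 and GPI for KRT18 (0.0215 to 0.0229). Among the keratins KRT8 and KRT18 were closest to each other (0.071) and KRT7 and KRT81 farthest apart (1.11).

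A set of short words for each siRNA preparation was looked for in the 3' untranslated regions of GENCODE 29 on GRCh38, on the sense strand. The words had been picked in an earlier analysis of these data because genes that carry them fell most, so they are no independent evidence. CAAGGAA or CCAAGGA, which overlap in exon 11a as capitalised above, occur in 26.6% of the 11316 tested genes that could be searched, and in 0 of the 7 keratins. The siMENA words are an overlapping pair, CAGAATA with its neighbour AGAATAA, and a second pair, CAGCGTA with its neighbour AGCGTAA. At least 1 of them occurs in 30.8% of those genes and in KRT7 alone among the keratins. KRT19 and KRT86 were searched as well, although they were not tested. The longest 3' regions had 126 bases in KRT19, 161 in KRT7, 342 in KRT81, 466 in KRT18 and 578 in KRT86. Those of KRT8 and KRT80 had 2190 and 2527. The shares over all genes were not matched for this length. KRT7 fell under siMENA and holds CAGAATA starting 113 bases after its stop codon, in a 3' region of 161 bases, shown here in capitals with its neighbours.
KRT7 site: aaagtgatgtCAGAATAgcttccaata
KRT80 and KRT81 also fell under siMENA and hold none of the 4 words. A match is only a description of these letters.

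The wider keratin family was sparse in these cells. Of 48 other keratin genes in the table, 32 were listed at 0 in all 9 libraries, and KRT10 alone had a mean of at least 1 scaled TPM. KRT10, a type I keratin of the upper epidermis, averaged 16.6 ± 0.0976 scaled TPM in siMENA11a, 18.5 ± 1.44 in siMENA and 16.4 ± 0.790 in control (SD, n = 3 each). It rose by 0.17 ± 0.056 under siMENA (adjusted p = 0.0334), a call that 7 of 18 alternatives ended (adjusted p up to 0.108 without control 1). The log2 fold change was 0.11 without siMENA 1 and 0.27 in TPM rescaled without small RNAs. Under siMENA11a KRT10 was not called (0.02, adjusted p = 0.83). KRT15, a type I keratin of basal and progenitor cells, was the only other one tested. It averaged 0.390 ± 0.247 in siMENA11a, 0.389 ± 0.104 in siMENA and 1.03 ± 0.150 in control, and fell by 0.82 ± 0.22 under siMENA11a (adjusted p = 0.0103) and by 0.79 ± 0.22 under siMENA (adjusted p = 0.0145). Both knockdown means were below the filter of 0.5 scaled TPM, so KRT15 was tested only because control was high. Its 2 calls are therefore a description and no independent evidence of a fall. The lowest library, siMENA11a 2, was listed at 0.1 TPM. The fall under siMENA was not called without control 1 (-0.71, adjusted p = 0.0521), and with 0.1 in place of the added 0.5 the values were -1.37 under siMENA11a and -1.22 under siMENA.

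Other intermediate filament genes moved in both directions. Under siMENA11a 2 of 9 tested rose and 5 fell (median -0.15), and under siMENA 2 rose and 3 fell (median -0.07, positive at 0.02 in TPM as deposited and at 0.03 in TPM rescaled without small RNAs). For this and the lists that follow, the shares of all tested genes called were 27.9% higher and 27.7% lower under siMENA11a, and 23.7% higher and 25.8% lower under siMENA. VIM encodes vimentin, the filament protein of mesenchymal cells, and averaged 873 ± 7.03 scaled TPM in siMENA11a, 532 ± 37.3 in siMENA and 1015 ± 17.6 in control. Its level was above that of KRT18 in every group, and it fell by 0.22 ± 0.049 under siMENA11a (adjusted p = 0.00427) and by 0.93 ± 0.049 under siMENA (adjusted p = 7.96e-07). The fibroblast marker COL1A1 rose by 0.88 under siMENA and fell by 0.26 under siMENA11a in the same libraries, and its part was not tested. The nuclear lamina gene LMNA fell by 0.16 and 0.54 on the log2 scale under siMENA11a and siMENA, and LMNB2 fell by 0.53 under siMENA11a. Under siMENA11a, TPM rescaled without small RNAs gave -0.14 for VIM and -0.08 for LMNA, which was then not called (adjusted p = 0.0527), and TPM as deposited gave -0.35 for VIM and -0.29 for LMNA. SYNM, whose product joins other filaments, fell by 0.38 under siMENA11a and rose by 0.24 under siMENA.

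Genes of the hemidesmosome, where keratin filaments meet the basement membrane, were called higher under siMENA11a and lower under siMENA. Under siMENA11a 5 of 6 tested rose and 0 fell (median 0.30), beside 27.9% of all tested genes called higher. In TPM as deposited 2 of 6 were called higher, where 1965 of all tested genes were, against 3770 with size factors. Under siMENA 0 rose and 5 fell (median -0.34), beside 25.8% of all tested genes called lower. In TPM as deposited 3 were called lower, where 2300 of all tested genes were, against 3478 with size factors. In the direct comparison 6 of 6 were higher in siMENA11a than in siMENA, where 29.5% of all tested genes were called higher. In TPM as deposited 5 of 6 were, where 2030 of all tested genes were called higher, against 3984 with size factors. LAMB3, a laminin chain of the basement membrane, averaged 8.79 ± 0.165 scaled TPM in siMENA11a, 3.20 ± 0.197 in siMENA and 6.76 ± 0.801 in control. Its log2 fold change was 0.36 ± 0.081 under siMENA11a (adjusted p = 0.00406, not called in TPM as deposited at 0.0564) and -0.97 ± 0.081 under siMENA (adjusted p = 1.33e-05). CD151, a tetraspanin that binds laminin-receptor integrins, rose by 0.41 under siMENA11a and fell by 0.38 under siMENA. LAMA3, another laminin chain, rose by 0.23 under siMENA11a (not called in TPM as deposited, adjusted p = 0.202).

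Plakins and desmosomal anchors were mixed. Under siMENA11a 5 of 14 tested rose and 4 fell (median 0.06, -0.07 in TPM as deposited), and under siMENA 4 rose and 3 fell (median -0.02, positive in the other 3 scalings). PLEC, which encodes the linker plectin, fell by 0.38 under siMENA11a and by 0.28 under siMENA (-0.18 in TPM rescaled without small RNAs). PKP4, a plakophilin relative, fell by 0.70 under siMENA11a, PERP, a desmosomal membrane protein, rose by 0.37 under siMENA11a (0.24 in TPM as deposited), and the actin and microtubule linker MACF1 fell by 0.44 under siMENA. Under siMENA PERP was not called (0.07, adjusted p = 0.13) but was called higher in the other 3 scalings, at 0.12 to 0.17.

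Genes of proteins that bind keratins or regulate their filaments were also called in both directions. Of 20 tested, 6 rose and 11 fell under siMENA11a (median -0.12), 8 and 8 in TPM rescaled without small RNAs, while 2 rose and 11 fell under siMENA (median -0.19), 5 and 8 in TPM rescaled without small RNAs and 2 and 8 in TPM as deposited. Of all tested genes, 23.7% were called higher and 25.8% lower under siMENA. All tested genes shifted the same way in TPM rescaled without small RNAs. Under siMENA 4802 were then called higher, against 3196 with size factors, and fewer were called lower. Under siMENA11a more were likewise called higher than the 3770 with size factors, and fewer were called lower. In TPM as deposited 2300 were called lower under siMENA, against 3478 with size factors. The chaperone DNAJB6, which binds KRT18, fell by 0.98 ± 0.045 under siMENA (adjusted p = 4e-07), with values of 39.2 ± 0.418 scaled TPM in siMENA11a, 18.7 ± 0.124 in siMENA and 37.6 ± 2.47 in control. The small heat shock protein gene HSPB1 fell by 0.62 under siMENA, and the 14-3-3 gene YWHAZ by 0.34 under siMENA11a and 0.51 under siMENA. CSNK1A1, a kinase that acts on keratin filaments, rose by 0.48 under siMENA11a and by 0.16 under siMENA (0.24 in TPM as deposited and 0.26 rescaled without small RNAs).

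Of 22 tested transcription factors known to act on keratin genes, 8 rose and 5 fell under siMENA11a (median 0.07, -0.02 in TPM as deposited) and 7 rose and 2 fell under siMENA (median 0.08, with 10 to 12 higher in the other 3 scalings). Of all tested genes in the scaling reported, 27.9% were called higher and 27.7% lower under siMENA11a. Under siMENA 23.7% were called higher and 25.8% lower. The 2 of 22 factors called lower under siMENA were thus a smaller share than that of all tested genes. In the other 3 scalings more of all tested genes were also called higher under siMENA. In TPM rescaled without small RNAs 4802 were, against 3196 in the scaling reported. Whether the list differs from all tested genes was not tested. ETS1 fell by 0.73 ± 0.054 under siMENA11a and by 0.95 ± 0.054 under siMENA. FOXA1, a factor of glandular epithelia, rose by 0.35 and 0.55 in the same order, and NFE2L2 by 0.38 and 0.18. In TPM as deposited the siMENA11a values were 0.22 for FOXA1 and 0.25 for NFE2L2, and rescaled without small RNAs NFE2L2 was at 0.28 under siMENA. The AP-1 subunit FOSL1 averaged 52.0 ± 2.32 scaled TPM in siMENA11a, 26.7 ± 0.240 in siMENA and 46.4 ± 5.72 in control. It fell by 0.78 ± 0.077 under siMENA (adjusted p = 3.65e-05) and was not called under siMENA11a (0.17, adjusted p = 0.0928), where its value depended on the setting. It was 0.036 in TPM as deposited and 0.063 without control 3, neither of them called, and was called higher at 0.25 in TPM rescaled without small RNAs, at 0.21 with upper-quartile scaling and at 0.23 without control 1 (adjusted p of 0.0254 to 0.0472).

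**Figure D5:**
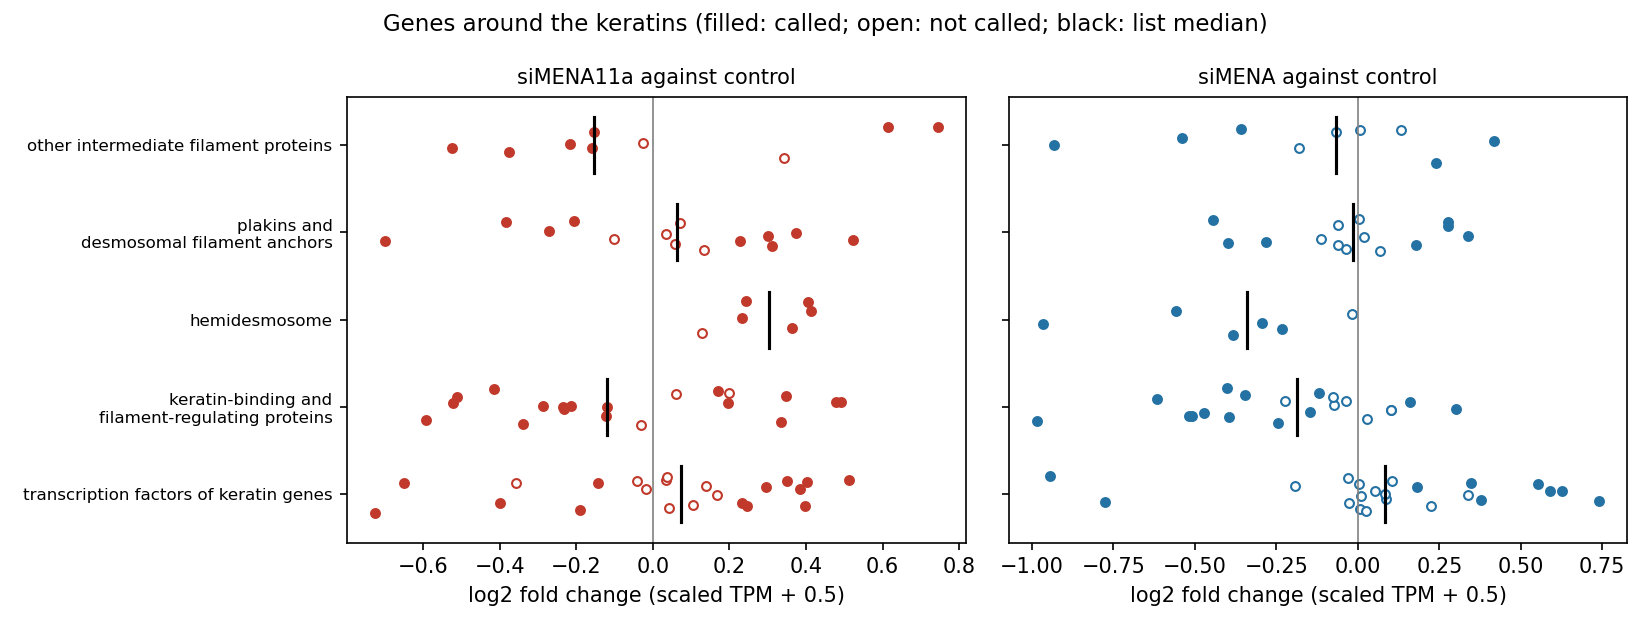
Log2 fold change (horizontal axes) of each tested gene in 5 lists around the keratins (rows) for siMENA11a against control (left) and siMENA against control (right); filled points are called, open points are not, and black bars are list medians. The hemidesmosome median is 0.30 on the left and -0.34 on the right.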

How the data were processed

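Per the labels' protocols, total RNA depleted of ribosomal RNA was made into stranded libraries and read from both ends, 75 bases each. The authors deposited 1 table of TPM per gene, which sums to 1000000 in each library and carries 2 decimals. Its file is named after RSEM, whereas the submitters' processing notes list kallisto and GRCh37 without a role, and how reads were counted is not stated. Depth cannot be recovered from TPM, and hence neither can counting error.

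Size factors were medians of ratios over 12341 genes. Genes with a mean of at least 0.5 scaled TPM (13498) entered 1 limma fit (3.58.1, R 4.3.3) of 3 group means on the log2 of scaled TPM plus 0.5, with trended eBayes and no block. The code was tested on simulated data. Ratios had exact permutation tests. Positions and sequences are from GENCODE 29 (GRCh38). Promoters of KRT7, KRT18, KRT19, KRT80, KRT81 and KRT86 are not used here, and a few items that the rules would name are not reported here. Named genes are the 7 keratins, other keratins at a mean of at least 1, up to 4 genes per list by smallest adjusted p against control, and the 3 nearest profiles per keratin. The members and lists were chosen with earlier results of these data known. Alternatives covered scaling, pseudocount, filter, block, groups in the fit and each library left out.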

Additional observations from a re-analysis of the deposited data

Results flagged for a closer look

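KRT7 was called in opposite directions by the siRNA preparations, higher than control under siMENA11a (0.65 on the log2 scale) and lower under siMENA (-1.10). The difference between them was tested directly as siMENA11a against siMENA, at 1.76 ± 0.088 on the log2 scale (limma adjusted p = 2.62e-07), with all 3 siMENA11a libraries above all 3 siMENA libraries. It stayed between 1.55 and 1.85 over 18 alternatives, and the call held in each of them.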

How the results depend on the processing

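KRT7, KRT80 and KRT81 kept their direction and call in all 3 comparisons under 18, 18 and 17 alternatives, since KRT81 has no value with a filter at a mean of 5. Against control, KRT7 ran from 0.52 to 0.74 under siMENA11a and from -1.20 to -1.01 under siMENA, KRT80 from -0.51 to -0.30 and from -1.13 to -0.999, and KRT81 from -1.94 to -1.50 and from -1.33 to -1.09. TPM as deposited gave 1965 genes called higher for siMENA11a and 2300 called lower for siMENA, each against control, against 3770 and 3478 as reported, and for siMENA11a against siMENA 2030 higher and 6321 lower; TPM rescaled without small RNAs gave 4802 higher for siMENA against control. Keratins lower in siMENA11a than in siMENA numbered 3 in TPM as deposited and 3 rescaled, where KRT8 and KRT18 joined KRT81, and 0 with the filter at a mean of 5. Values with no call changed sign as follows in TPM as deposited: under siMENA11a KRT10 (-0.11), MACF1 (-0.098) and DNAJB6 (-0.071), and under siMENA KRT8 (0.033), LMNB2 (0.017), PKP4 (0.023) and LAMA3 (0.061). ENAH, called under siMENA11a, was at -0.014 there. DNAJB6 under siMENA11a was instead called higher in TPM rescaled without small RNAs (0.14, adjusted p = 0.0424). Rescaled, KRT8 (0.049), LMNB2 (0.032), PKP4 (0.039) and LAMA3 (0.079) also changed sign under siMENA, as did LAMA3 with upper-quartile scaling (0.026), and KRT10 under siMENA11a without control 1 (-0.0099, with 0.053 as the highest value with a library left out). The log2 ratio of KRT8 to KRT18 between siMENA11a and siMENA ran from -0.0302 to 0.0138 with a library left out. The cause of these changes was not tested. Replicate numbers did not pair the libraries (r of -0.0965 to 0.104 for same-numbered and -0.126 to 0.129 for other pairs). The replicate block gave 3660 genes higher and 3649 lower under siMENA11a and changed no call of the 5 tested keratins. It ended the calls of KRT10 under siMENA (adjusted p = 0.0597) and in siMENA11a against siMENA (0.0715), and of HSPB1 under siMENA11a (0.0541). Other settings ended the last 2 of these calls as well. There the adjusted p reached 0.135 for KRT10 without siMENA 1 and 0.384 for HSPB1 in TPM rescaled without small RNAs. Depth is unknown, so KRT19, KRT34 and KRT86 carry no counting error.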

Other observations

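KRT34, a type I hair keratin below the filter, was picked after its values were seen. It had 1.08, 0.627 and 0.75 scaled TPM in siMENA11a, 0.0379, 0.0652 and 0.0367 in siMENA, and 0.402, 0.269 and 0.321 in control, so that the 3 groups did not overlap and lay in the same order as for KRT7. With no filter its log2 fold change was 0.66 ± 0.12 under siMENA11a (limma adjusted p = 0.00308) and -0.60 ± 0.12 under siMENA (adjusted p = 0.00585). As the gene was picked from these values, its p-values are a description only. The siMENA libraries were listed at 0.04 to 0.07 TPM, near the lower limit of the table and at unknown depth, so the size of that fall is uncertain. The hair keratin KRT83 had 0.0308 to 0.248 scaled TPM in siMENA11a, 0.147 to 0.224 in siMENA and 0.134 to 0.29 in control, and those groups overlapped.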
